A study of Homo sapiens with 2 samples.

Results

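The glutathione S-transferases (GST), sulfotransferases (SULT) and UDP-glucuronosyltransferases (UGT) were examined in Huh-7 cells, an established human hepatoma line, with and without interferon-alpha. Members were all genes whose symbol in the platform annotation begins with UGT1, UGT2, UGT3, SULT or GST followed by a letter or number, which gave 45 of the 21357 genes that the annotation names. Of the 45, 18 were GST, 10 SULT and 17 UGT symbols, and 1 of the GST symbols was an antisense RNA, GSTCD-AS1, which is kept out of the counts of enzymes below. A probe set of their own represented 34 of the 45 (56 probe sets), and the other 11 were read only by probe sets that several genes share (12 probe sets), which are described apart.

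The study held 2 arrays of total RNA, 1 from a culture given recombinant human interferon-alpha 2b (100 U/mL, for 6 hours) and 1 from an untreated culture whose medium was exchanged. Both came from the same unmodified line, grown in serum-containing medium, and the medium change followed 24 hours of incubation. How long after its medium change the untreated culture was harvested is not given in the sources used here. With 1 array per condition there is no replicate, so no difference could be tested and the number of arrays limits the precision of every value. RNA was taken from whole cultures, so a different share of cells and a different amount of RNA per cell cannot be told apart.

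These 3 families carry out most of the conjugation, or phase II, step by which liver cells make foreign and endogenous compounds water-soluble. UGT enzymes sit in the endoplasmic reticulum and transfer glucuronic acid from UDP-glucuronate, SULT enzymes are cytosolic and transfer sulfate from the donor PAPS, and GST enzymes attach glutathione to electrophiles. In hepatocytes their genes are controlled largely by liver-enriched transcription factors, by ligand-activated nuclear receptors and, for many GST genes, by the oxidative stress factor NRF2. Interferon treatment is known to lower cytochrome P450 activity in liver, and the comparison here asks how the transcripts of the conjugating enzymes stood at 6 hours.

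Values are the deposited probe set intensities on a linear scale. The 50th percentile of the pooled values, an intensity of 48.5, served as a floor, to which any lower value was lifted before a ratio was formed. Each gene is given by its probe set of highest mean log2 intensity, and a gene is called counted if that probe set exceeded the floor on either array. Intensities of different probe sets are not on a common scale of RNA amount, so they are given as a baseline for each gene and set no order between genes.

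None of the counted GST, SULT or UGT genes differed by 2-fold between the arrays. Of the 33 enzyme genes with a probe set of their own 20 were counted, 0 of the 20 were at least 2-fold higher with interferon-alpha and 0 were at least 2-fold lower. Across all 13269 counted genes the share at least 2-fold higher was 0.43% and the share at least 2-fold lower was 0%, so a count of 0 among 20 does not set these families apart. At 1.5-fold the counts were again 0 and 0, beside 0.754% and 0.0829% of all counted genes. The 20 log2 ratios ran from -0.34 to 0.22.

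The same arrays showed the interferon response, on a list of check genes chosen with earlier results of these data known. All 7 interferon-stimulated genes that served as a check and had a named probe set were at least 2-fold higher, among them ISG15 (351 untreated and 8332 with interferon-alpha), a ubiquitin-like antiviral protein, and IRF9 (107 and 2143), the DNA-binding part of the complex ISGF3. IFIT1, which binds foreign RNA, had 25.3, below the floor, and 3125, and was at least 64.5-fold higher.

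**Figure D1:**
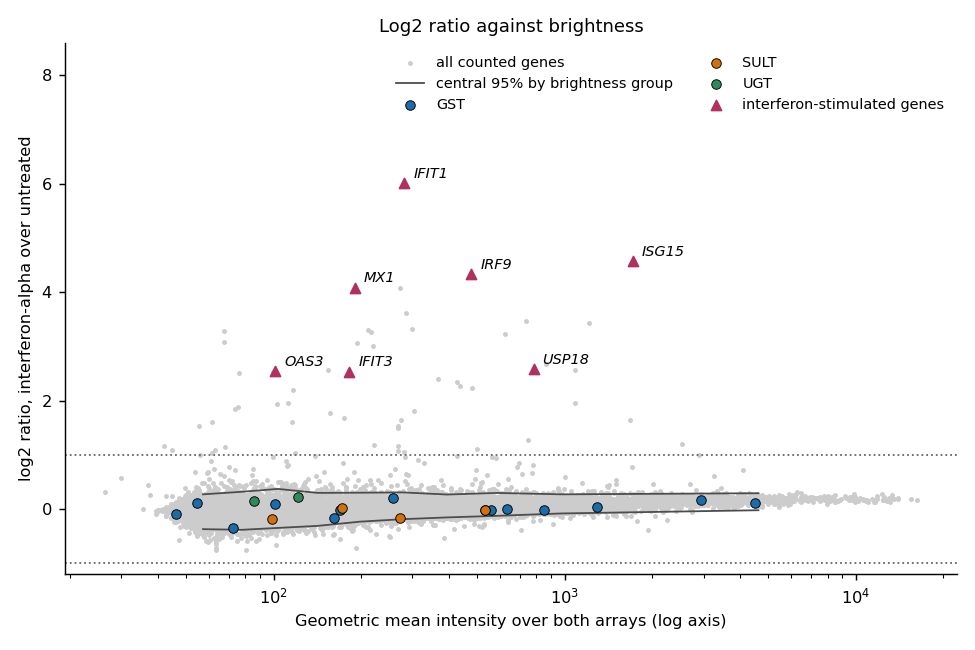
Log2 ratio of the interferon-alpha array over the untreated array (vertical axis) against the geometric mean intensity (horizontal log axis) for all 13269 counted genes (grey), the 20 counted GST, SULT and UGT genes (circles) and the 7 interferon-stimulated genes (triangles), with dotted lines at 2-fold and solid lines around the central 95% of genes in 10 groups of like brightness. The circles lie between -0.34 and 0.22, and the triangles between 2.53 and 6.01, with IFIT1, MX1 and OAS3 as lower bounds because they were below the floor untreated.

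The regulatory sequences in front of these genes were set beside this contrast, because the interferon-activated complex binds a defined motif, the interferon-stimulated response element. Promoter sequences came from RefSeq (GRCh38.p14), which held 36 of the 44 enzyme genes and 6 of the 8 interferon-stimulated genes listed for the check. The letters GAAA, any 2 bases and GAAA again, searched on both strands over the 250 bases before the start site, occurred in 5 of those 6 (IFIT1, IFIT3, ISG15, MX1 and OAS3), in 0 of the 36 enzyme genes and in 3.71% of all 27305 genes in the table. The letters TGAC, any 3 bases and GC, the core of the antioxidant response element through which NRF2 acts, occurred in 8 of the 36 enzyme genes (GSTA4, GSTM1, GSTM5, GSTO1, GSTP1, SULT1C2, UGT1A5 and UGT1A6), in 0 of the 6 interferon-stimulated genes and in 13.2% of all genes. A match is a description of letters and not a binding site, and no match says only that the letters are not in this window. With 3.71% of all genes holding the interferon letters, 0 of 36 does not set the enzyme genes apart. The antioxidant core was in 22.2% of the 36 enzyme genes beside 13.2% of all genes, a difference that was not tested. The sequences below are those of ISG15 and IFIT1, with the interferon element in capitals, and of GSTP1, GSTO1 and SULT2A1, with the antioxidant core in capitals (SULT2A1 holds neither).
ISG15 (chr1:1013247-1013496, plus strand): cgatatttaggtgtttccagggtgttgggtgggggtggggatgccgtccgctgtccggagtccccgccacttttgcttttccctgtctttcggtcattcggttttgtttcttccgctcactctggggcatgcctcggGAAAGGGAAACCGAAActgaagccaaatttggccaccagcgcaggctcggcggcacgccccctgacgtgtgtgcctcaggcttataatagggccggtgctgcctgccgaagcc
IFIT1 (chr10:89392373-89392622, plus strand): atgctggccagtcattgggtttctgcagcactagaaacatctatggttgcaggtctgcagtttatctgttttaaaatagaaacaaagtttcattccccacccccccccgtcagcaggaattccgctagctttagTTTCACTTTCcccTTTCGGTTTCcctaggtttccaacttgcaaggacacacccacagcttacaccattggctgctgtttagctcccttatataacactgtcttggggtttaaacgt
GSTP1 (chr11:67583562-67583811, plus strand): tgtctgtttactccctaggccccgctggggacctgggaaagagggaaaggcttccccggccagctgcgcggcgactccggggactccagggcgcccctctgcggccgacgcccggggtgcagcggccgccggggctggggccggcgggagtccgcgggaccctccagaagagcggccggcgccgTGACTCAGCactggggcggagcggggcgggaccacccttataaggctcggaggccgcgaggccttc
GSTO1 (chr10:104254642-104254891, plus strand): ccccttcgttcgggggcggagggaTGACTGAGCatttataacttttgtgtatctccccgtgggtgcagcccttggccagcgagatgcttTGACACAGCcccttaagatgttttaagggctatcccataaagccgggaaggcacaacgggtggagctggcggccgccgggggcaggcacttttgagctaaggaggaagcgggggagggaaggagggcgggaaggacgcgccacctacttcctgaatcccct
SULT2A1 (chr19:47886316-47886565, minus strand): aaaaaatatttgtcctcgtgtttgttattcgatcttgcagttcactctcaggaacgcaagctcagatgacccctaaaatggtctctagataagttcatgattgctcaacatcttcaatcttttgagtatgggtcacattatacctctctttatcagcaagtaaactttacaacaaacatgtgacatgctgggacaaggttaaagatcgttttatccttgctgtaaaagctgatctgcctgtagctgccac
In ISG15 the capitals are 2 matches that overlap each other, starting 113 and 107 bases before the start site. In IFIT1 the 2 matches are on the opposite strand and do not overlap. The GSTP1 match starts 66 bases before the start site and contains the letters TGACTCA, which are also a binding sequence of the AP-1 factors. GSTO1 has 2 matches, starting 226 and 161 bases upstream. The 5 check genes with the interferon element had log2 ratios of 2.53 or more. IRF9, in which these letters are not in this window, had 4.33. GSTP1, GSTO1 and SULT2A1 had log2 ratios of 0.11, 0.17 and -0.16. The check genes were listed as interferon-stimulated, with earlier results of these data known, so their high ratios do not show what the letters do. Of all 27305 genes, 1014 held the interferon letters, whereas only 57 of the 13269 counted genes were at least 2-fold higher. Most genes with the letters were therefore not among these 57. Whether the letters go with a higher ratio was not tested.

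GST genes were the family with the largest share of counted members. Of 17 genes 14 (82.4%) were counted, against 67.1% of all genes with a probe set, although this share depends on the probe sets as well as on the RNA. Of the 14 log2 ratios 6 were above 0 and 8 below, and their median was -0.0074 beside 0.033 for all counted genes. That median was above 0 after median scaling and with _x_at and _s_at probe sets left out, and it was -0.41 after centring on the hybridisation controls, where that of all counted genes was -0.38.

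The pi class and 1 of the 2 omega class genes exceeded the floor. GSTP1, the pi class enzyme that is low in normal hepatocytes and common in tumours, had an intensity of 4321 untreated and 4676 with interferon-alpha, a log2 ratio of 0.11. GSTO1, which reduces dehydroascorbate and methylated arsenic, had 2772 and 3118 (log2 ratio 0.17), and its second probe set gave 2710 and 3005 (0.15). Both genes were slightly brighter on the interferon-alpha array with the deposited scaling, yet GSTP1 had -0.070 after quantile and -0.050 after lowess scaling, and GSTO1 had 0 and 0.026. Genes as bright as these had a median log2 ratio of 0.14 in the deposited values, so their ratios lay close to those of their brightness group. GSTO2, the other omega class gene and the neighbour of GSTO1 in the genome, did not reach the floor, at 37.9 and 38.7.

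The mu class genes GSTM1 to GSTM5 lie next to one another in the genome and are close in sequence. GSTM3 had 1269 and 1310, a log2 ratio of 0.046, and its second probe set gave -0.044 at intensities of 63.0 and 61.1. GSTM1 had 561 and 556 (-0.012), and its second probe set gave 532.9 and 499.6 (-0.093). GSTM2 had 535 and 527 (-0.021). The probe sets of GSTM1 and GSTM2 are of the _x_at kind, which can bind transcripts of related genes, so their separate values are uncertain. GSTM4 had 172 and 152, a log2 ratio of -0.17, while its second probe set read 50.8 on both arrays. GSTM5 had 81.8 and 64.4, and its log2 ratio of -0.34 was the lowest of the 20 members. It was the only counted member outside the central 95% of all genes above the floor on both arrays (-0.29 to 0.30), but it lay inside that of genes of its own brightness (-0.38 to 0.32). With the floor at the 60th percentile its ratio was -0.15, a bound, since its interferon-alpha value was below that floor.

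The alpha class, which normal hepatocytes express strongly, had 1 of 3 genes above the floor. GSTA1, the main hepatic alpha enzyme, had 41.0 and 39.98, and GSTA3, which acts in steroid synthesis, had 27.7 and 25.3, so both were below the floor on both arrays. GSTA4, which conjugates the lipid peroxidation product 4-hydroxynonenal, was the exception with 636 and 635 and a log2 ratio of -0.0023.

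The remaining GST genes showed small ratios on either side of 0. GSTK1, the kappa enzyme of mitochondria and peroxisomes, had 856 and 844, a log2 ratio of -0.021. GSTZ1, which isomerises maleylacetoacetate in tyrosine breakdown, had 171 and 168 (-0.021). GSTCD, named for a GST-like C-terminal domain, had 239 and 275, a log2 ratio of 0.20, and another of its 3 probe sets gave 0.22 at 186 and 216. Its 2 counted probe sets thus differed by 0.017, less than the median difference of 0.14 between probe sets of one gene over 5912 genes. GSTCD-AS1, the antisense RNA next to it, was below the floor at 16.4 and 16.04.

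The theta class lay near the floor. GSTT1 had 51.7 untreated and 41.4, below the floor, with interferon-alpha, so it was at least 1.07-fold lower, and its other probe set read 25.4 on both arrays. Without the floor that GSTT1 ratio was -0.32. GSTT2, a transcribed pseudogene in the RefSeq annotation, had 52.6 and 56.5 (log2 ratio 0.10), and its neighbour GSTT4 had 97.7 and 105 (0.098).

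**Figure D2:**
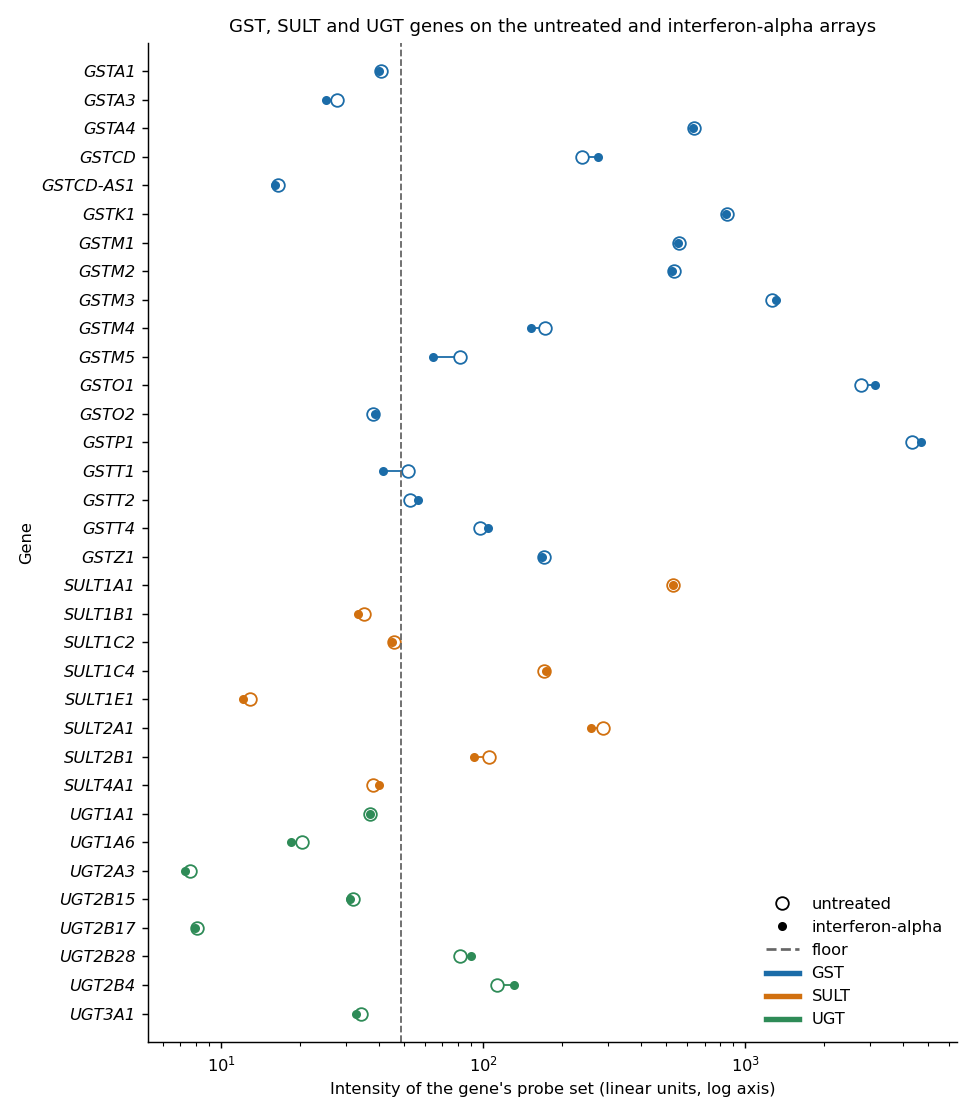
Intensity of the probe set used for each GST (blue), SULT (orange) and UGT (green) gene on a log axis, with open circles for the untreated array, filled circles for the interferon-alpha array, and a dashed line at the floor of 48.5. Open and filled circles nearly coincide for most genes, 14 GST, 4 SULT and 2 UGT genes reach the floor on at least 1 array, and GSTT1 crosses it.

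SULT genes were counted in 4 of 8 cases (50%). Their median log2 ratio was -0.086, and with _x_at and _s_at probe sets left out the median was 0.076 over 3 genes. After centring on the hybridisation controls the floor was set anew, and the median was -0.44 over the 5 SULT genes then counted. The 4 counted as reported then had log2 ratios from -0.61 (SULT2B1) to -0.40 (SULT1C4). SULT1A1, the main phenol sulfotransferase of liver, had 532 and 529, a log2 ratio of -0.0088, and its 3 probe sets ran from -0.022 to 0.25. The value of 0.25 came from its dimmest probe set, with 70.3 and 83.5. That is the only probe set of SULT1A1 not of the _x_at kind, so related SULT1A transcripts may contribute to the brighter ones. SULT2A1, which sulfates dehydroepiandrosterone and bile acids in liver and adrenal, had 288 and 257 (-0.16) on one probe set and 250.1 and 264 (0.076) on the other, so its probe sets disagreed in sign. SULT2B1, which acts on cholesterol and pregnenolone, had 105 and 92.7 (-0.19). SULT1C4, a form described mainly in fetal tissue, had 171 and 174 (0.026).

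The other 4 SULT genes with their own probe set stayed under the floor in either condition, with values from 12.1 to 45.8 on the probe sets used. These were SULT1B1, which sulfates thyroid hormone, SULT1C2, the oestrogen sulfotransferase gene SULT1E1 and the brain form SULT4A1. SULT1C2 came nearest to the floor with 45.8 and 44.9, and all 4 of its probe sets were below it.

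SULT1A3 and SULT1A4, near-identical copies of the catecholamine sulfotransferase gene, were read only by 4 shared probe sets, which the annotation also assigns to the SLX1A and SLX1B genes or their readthrough transcripts. The brightest of the 4 had 356 and 355, and the dimmest 89.5 and 81.3. Their log2 ratios were -0.14, -0.051, -0.0073 and 0.011, and the share of each gene in them is unknown.

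UGT genes had the fewest counted members, 2 of 8 with their own probe set (25.0%). UGT2B4, which conjugates bile acids, had 113 and 131, a log2 ratio of 0.22, the highest among the 20 members. UGT2B28, its neighbour in the genome, had 81.3 and 90.3 (0.15) on an _x_at probe set, so related UGT2B transcripts may contribute. Both ratios lay inside the central 95% of genes of their brightness, which ran to 0.30 and 0.32. The median of the 2 was 0.19, whereas over all 8 genes it was -0.012 with a pseudocount of 16 and -0.026 with a pseudocount of 1 in place of the floor, and after centring on the hybridisation controls the counted 2 had -0.24.

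The remaining 6 UGT genes stayed under the floor in either condition, with values from 7.30 to 36.9 on the probe sets used. They include UGT2B15 (31.8 and 31.0) and UGT2B17 (8.06 and 7.96), which inactivate androgens, UGT2A3 (7.59 and 7.30), and UGT3A1 (34.1 and 32.8), which uses UDP-N-acetylglucosamine. UGT1A1, the enzyme that conjugates bilirubin, read 36.9 on both arrays, and UGT1A6, which conjugates small planar phenols, had 20.4 and 18.6.

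The UGT1A genes lie in one locus, where alternative first exons are joined to a set of common exons, and most of their probe sets are therefore shared. Of the 7 shared UGT1A probe sets 3 are assigned to 9 genes, 2 to 6 genes and 2 to 5 genes. On the 3 that cover all 9 genes the intensities were 63.2 and 63.9, 49.7 and 45.1, and 32.4 and 31.5, which lie close to the floor or under it. The 2 assigned to 6 genes had 80.7 and 95.1 (log2 ratio 0.24) and 81.5 and 77.1 (-0.080), so they differed in sign. The 2 assigned to 5 genes were below the floor at 13.0 on both arrays and at 13.6 and 11.8. The olfactory UGT2A1 and UGT2A2 shared 1 probe set, with 12.3 and 10.5.

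**Figure D3:**
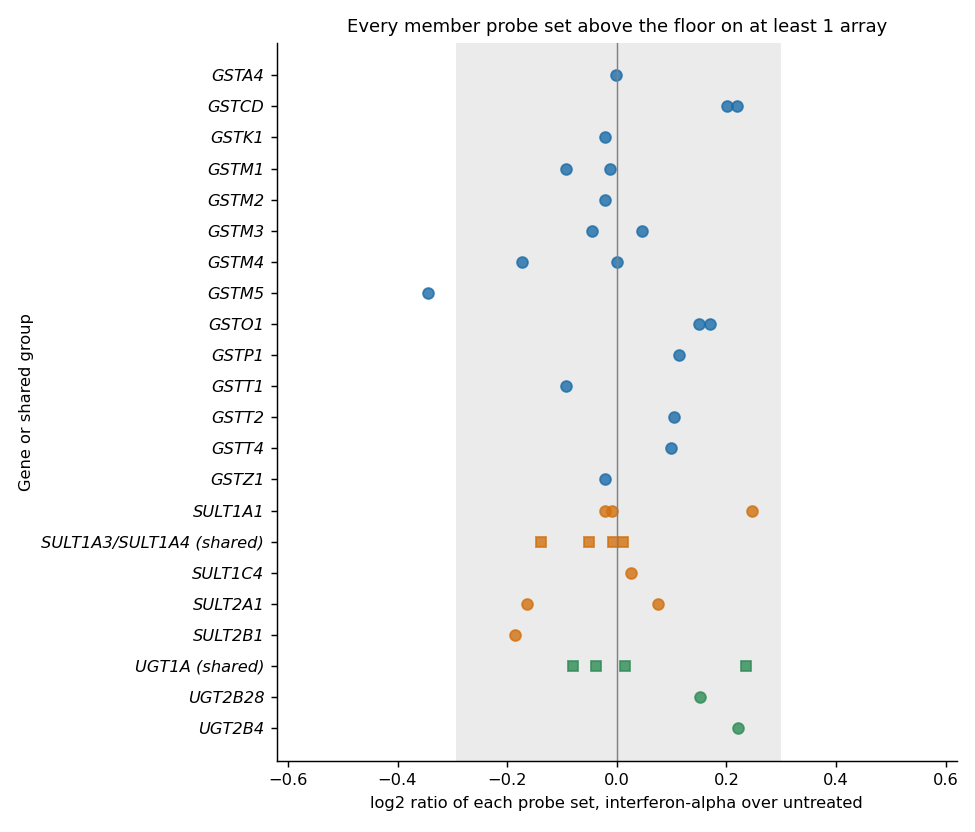
Log2 ratio of the interferon-alpha array over the untreated array for every GST (blue), SULT (orange) and UGT (green) probe set that exceeded the floor on either array, with circles for probe sets of 1 gene, squares for shared probe sets and a grey band for the central 95% of all genes above the floor on both arrays (-0.29 to 0.30). All points but that of GSTM5 lie in the band, and the probe sets of SULT2A1, SULT1A1, GSTM3, the shared SULT1A3 and SULT1A4 group and the UGT1A group fall on both sides of 0.

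The agreement between probe sets of a gene gives a scale for these ratios, although it is no replicate error. In the 7 members for which more than 1 probe set exceeded the floor in both conditions, the highest minus the lowest log2 ratio had a median of 0.090, and it was widest in SULT1A1 (0.27) and SULT2A1 (0.24). All 19 members above the floor on both arrays lay inside the central 95% of genes in their own brightness group, of 10 groups, outside which 5.02% of all such genes lie by construction.

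Genes that supply or accompany these enzymes were examined in the same way. In 7 lists with 84 genes, 76 had a named probe set, 66 were counted, and 0 were at least 1.5-fold higher or lower. With 0.754% and 0.0829% of all counted genes past those thresholds, 0 of 66 does not set the lists apart. Medians of the log2 ratio ran from 0.028 for the other NRF2 target genes to 0.12 for sulfate donor supply. All 7 medians were within 0.1 of the 0.033 of all counted genes.

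Both glutathione lists ranged widely in intensity, from 49.6 to 1920 untreated for synthesis and recycling and from 25.7 to 4972 for the other transferases and peroxidases, of which HPGDS did not reach the floor. The list of glutathione synthesis and recycling had a median of 0.067 over 11 counted genes, with GGCT (1920 and 2011), a cyclotransferase of glutathione breakdown, the amino acid transporter chain SLC3A2 (1443 and 1516) and the glutathione synthetase GSS (1364 and 1366) as its members of highest untreated intensity. Among 13 counted other glutathione transferases and peroxidases the median was 0.054. These included the microsomal transferase MGST1 (4972 and 5536), the GST-fold protein CLIC1 (4817 and 5686) and the lipid hydroperoxidase GPX4 (4413 and 4698).

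Donor supply was measurable for both other pathways. The UDP-glucuronate list had a median of 0.11 over 5 counted genes, including the glucuronidase GUSB (1556 and 1643), the UDP-glucose synthase UGP2 (1069 and 1155) and the nucleotide sugar transporter SLC35D1 (1047 and 1125). The PAPS synthases PAPSS1 (898 and 967) and PAPSS2 (310.0 and 320) and the PAPS transporter SLC35B3 (417 and 491) led the sulfate donor list of 8 counted genes. Among 7 counted other transferases the median was 0.029, and HNMT, which methylates histamine, had 1709 and 1915, AS3MT, an arsenic methyltransferase, 246 and 237, and the thiopurine methyltransferase TPMT 188 and 186.

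Regulators of the conjugating enzymes had a median of 0.094 over 12 counted genes. CEBPA, a liver-enriched factor, had 4540 and 4878, NFE2L2, which encodes NRF2, 2022 and 2257, and the nuclear receptor partner RXRA 1137 and 1136. Among the 10 counted other NRF2 targets were the quinone reductase NQO1 (4609 and 5211), TALDO1 (3312 and 3677) and the thioredoxin reductase TXNRD1 (2164 and 2467). Above the central 95% of all genes were 2 of the 66 (3.03%), beside 2.5% of all genes above the floor on both arrays, a share too close to set the lists apart. These 2, named after their values were seen, were BPNT1, which degrades the by-product of sulfation (125 and 159, log2 ratio 0.35), and NAT1, an arylamine acetyltransferase (75.7 and 94.3, 0.32), and 0 of the 66 lay below. NAT1 was inside the central 95% of genes of its own brightness, which ran to 0.32, and BPNT1 was outside it (to 0.30).

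**Figure D4:**
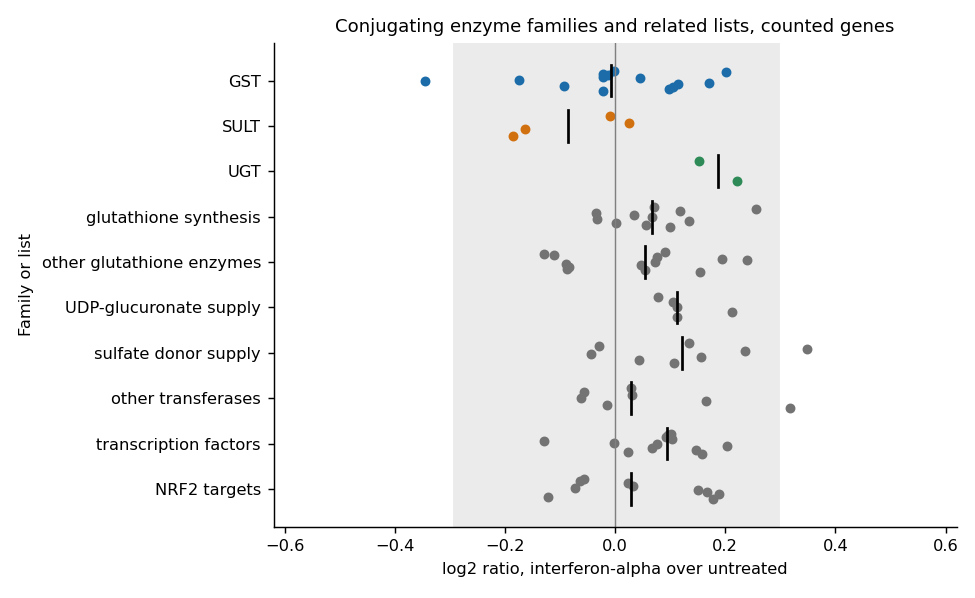
Log2 ratio of the interferon-alpha array over the untreated array for each counted gene of the GST, SULT and UGT families and of 7 related lists (points), with the median of each as a black bar and a grey band for the central 95% of all genes above the floor on both arrays. Medians with the deposited scaling run from -0.086 for SULT to 0.19 for UGT, and after centring on the hybridisation controls the medians of GST, SULT and UGT were all below 0.

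The labelled cell type was checked on markers. All 8 hepatocyte markers had untreated intensities of at least 2999.9, among them ALB at 12212 and the fetal protein AFP at 11588. Of 12 leukocyte, endothelial and stellate or fibroblast markers, 5 did not reach the floor on either array (PTPRC, CD3E, CDH5, KDR and DCN). The other 7 exceeded it, with untreated intensities from 67.1 (VWF) to 544 (COL1A2) and log2 ratios from -0.42 (VWF) to 0.082 (COL1A1). Among these 7 were 3 of the 4 stellate or fibroblast markers. The part of the 12 markers in the ratios of the conjugating enzymes was not tested.

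The signs of ratios this small depend on how the arrays are scaled. The 18 hybridisation control probe sets were brighter on the interferon-alpha array, with a median log2 ratio of 0.43. After centring on them the 20 members had log2 ratios from -0.77 to -0.21, and 0 reached 2-fold in either direction. At least 1.5-fold lower were 4 of the 20 (20%). The floor was set anew after the centring, so that 21 members and 13775 genes in all were then counted. Of the 21 members 4 were at least 1.5-fold lower, beside 8.72% of the 13775 genes, whose median was -0.38. The centring lowers all interferon-alpha values by the same factor. The difference from the share of all genes was not tested, and the count of 4 is not read as a result about the members.

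**Figure D5:**
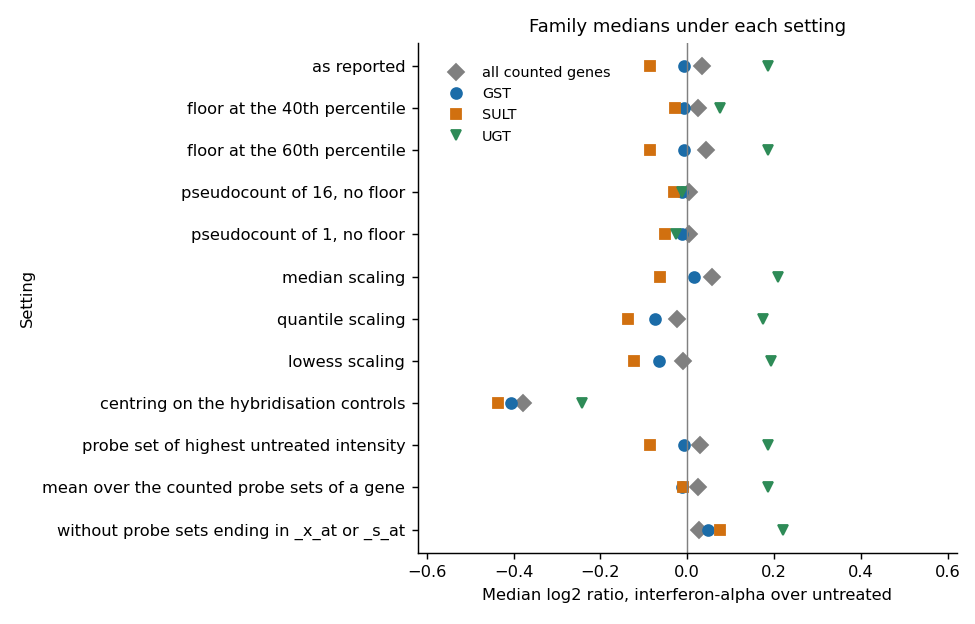
Median log2 ratio of the interferon-alpha array over the untreated array for the counted GST (circles), SULT (squares) and UGT (triangles) genes and for all counted genes (diamonds) under the reported setting and 11 alternatives. After centring on the hybridisation controls the medians of GST, SULT, UGT and all counted genes lie at -0.41, -0.44, -0.24 and -0.38. The SULT median there covers 5 counted genes, against 4 as reported. The UGT median is also below 0 with either pseudocount, and those of GST and SULT are below 0 as reported.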

How the data were processed

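RNA of 1 untreated and 1 interferon-alpha culture of Huh-7 cells was measured on an Affymetrix expression array, from 6 µg of total RNA each. The authors deposited linear intensities, 1 per probe set and array, made with GCOS, per the submitters' processing notes. For background correction, summary and scaling, the method is not given in the sources used here. They were used without further scaling (54613 probe sets, 62 controls left out), with medians of 48.8 and 48.0.

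Probe sets with 1 gene in the platform annotation (41091) were used for genes. Where a gene had several, that of highest mean log2 intensity was taken, whatever its change. Values below the 50th percentile were raised to it. Ratios are log2 of interferon-alpha over untreated, with a threshold of 2-fold and no p-value. Scripts used Python 3.11.15, pandas 2.3.3 and statsmodels 0.14.6, and were tested on simulated data.

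All members were named. For related lists, the 3 genes of highest untreated intensity and any at 1.5-fold or more were named. Members and lists were chosen with earlier results of these data known. Alternatives for the floor, scaling and probe sets are described at the end.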

Additional observations from a re-analysis of the deposited data

How the results depend on the processing

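The counts of member genes past 2-fold in either direction were 0 under each of the 11 alternatives and at 1.5-fold. Centring on the hybridisation controls gave medians of -0.41 for GST, -0.44 for SULT and -0.24 for UGT. That SULT median is over 5 counted genes, against 4 as reported. The UGT median was -0.012 with a pseudocount of 16 and -0.026 with one of 1, settings that include the 6 UGT genes below the floor. The SULT median was 0.076 once _x_at and _s_at probe sets were left out, which left 3 genes. Under the other alternatives each family median moved by less than the robust SD of 0.13 among all genes. Of 212 values of single members under an alternative, 182 moved by less than that and 30 by more, of which 10 were not under the control centring. No detection calls were used, so the floor stands in for signal over background. No paired analysis was possible because each condition had 1 array.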

Other observations

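Several deposited values of these genes repeat exactly. Of the 68 GST, SULT and UGT probe sets 6 (8.82%) had exactly equal values on the untreated and interferon-alpha arrays, beside 4.32% of all probe sets. They belonged to GSTM4, GSTT1, SULT1C2, SULT1E1, UGT1A1 and the shared UGT1A group, and each entered as a log2 ratio of 0 or was below the floor. Of the 136 member values 22.8% occurred more than once in the whole table, beside 13.1% of all 109226 values, and the most frequent value occurred 98 times. In addition 3711 values (3.40%) left the same remainder, the most common one, when divided by 0.5, equal to the sixth decimal. So did 7 member values from 4 probe sets, namely both values of GSTA4, GSTO1 and GSTZ1 and the interferon-alpha value of UGT2B28, whose untreated value differed from that remainder only in the sixth decimal. How these repeats arose was not tested.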
